A study of Homo sapiens with 66 samples.

Results

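The NRF2 oxidative stress genes examined here are 9 genes named by symbol, NFE2L2, KEAP1, HMOX1, NQO1, GCLC, GCLM, TXNRD1, SRXN1 and OSGIN1, out of 57992 gene identifiers counted. They were measured by RNA sequencing of 11 human acute myeloid leukemia (AML) cell lines, each either left in medium (untreated) or exposed for 24 hours to etoposide, a drug that traps topoisomerase II on cut DNA, at the concentration that the study took as the inhibitory concentration (IC50) of that line. Every group had 3 libraries, and each library came from the pooled cells of 3 culture wells, so the series holds 66 libraries. Listed by name, the cell lines were THP-1, OCI-AML3, OCI-AML2, NB-4, NOMO-1, MV-4-11, MOLM-13, MONO-MAC-6, KASUMI-1, F-36P and HL-60. Each is 1 established line, culture conditions differed between some lines and were shared by others, and the etoposide concentration was set for each line, so line and concentration cannot be told apart. The study set aside the etoposide libraries of OCI-AML2 after quality control of the raw reads. OCI-AML2 is therefore given apart and enters no count over the other 10 cell lines.

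NRF2, encoded by NFE2L2, is a transcription factor that cells keep at a low level through KEAP1, an adaptor that hands it to a ubiquitin ligase for degradation. Oxidants and electrophiles modify KEAP1, NRF2 then escapes degradation, pairs with small MAF proteins and binds antioxidant response elements near its target genes. Those targets include HMOX1, which cleaves haem, NQO1, which reduces quinones, GCLC and GCLM, the catalytic and modifier subunits of the enzyme that starts glutathione synthesis, TXNRD1, which reduces thioredoxin, SRXN1, which restores over-oxidised peroxiredoxins, and OSGIN1, an oxidative stress-induced growth inhibitor. Because NRF2 is controlled mainly as a protein, the mRNA level of NFE2L2 is not a measure of NRF2 activity. In myeloid cells HMOX1 is also known as a gene repressed by BACH1 and used by monocytes and macrophages to recycle haem iron.

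Promoter windows are shown for 4 members, 3 with the letters of the response element and NQO1 without, beside the genes whose levels are described below. The windows hold 250 bases before and 50 bases after an annotated start, read 5′ to 3′ on the strand of the gene, from RefSeq on GRCh38.p14. A window was at hand for all members but HMOX1, with 11 windows in all. Capitals mark each match to TGACNNNGC, the core of the antioxidant response element, searched on both strands, with N for any base. The windows are GCLM (chr1:93909381-93909680, minus strand), KEAP1 (chr19:10502722-10503021, minus strand), TXNRD1 (chr12:104286782-104287081, plus strand) and NQO1 (chr16:69726511-69726810, minus strand).
GCLM: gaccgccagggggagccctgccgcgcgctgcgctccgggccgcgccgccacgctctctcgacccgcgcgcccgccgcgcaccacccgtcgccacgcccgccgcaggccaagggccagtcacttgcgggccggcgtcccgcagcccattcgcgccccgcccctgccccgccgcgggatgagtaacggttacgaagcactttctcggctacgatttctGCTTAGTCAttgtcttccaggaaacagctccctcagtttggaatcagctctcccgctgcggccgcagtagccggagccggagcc
KEAP1: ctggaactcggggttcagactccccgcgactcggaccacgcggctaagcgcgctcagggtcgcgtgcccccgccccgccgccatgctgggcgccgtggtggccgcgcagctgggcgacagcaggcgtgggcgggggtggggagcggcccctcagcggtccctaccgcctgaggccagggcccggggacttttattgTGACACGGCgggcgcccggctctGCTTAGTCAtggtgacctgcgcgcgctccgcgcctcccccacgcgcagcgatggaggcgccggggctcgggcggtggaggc
TXNRD1: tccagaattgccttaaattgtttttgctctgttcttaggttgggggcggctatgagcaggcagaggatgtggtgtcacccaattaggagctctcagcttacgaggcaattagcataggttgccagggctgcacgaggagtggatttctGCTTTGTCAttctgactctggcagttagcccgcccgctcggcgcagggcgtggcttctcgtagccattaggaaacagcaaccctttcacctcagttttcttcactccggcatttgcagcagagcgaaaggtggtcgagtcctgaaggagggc
NQO1: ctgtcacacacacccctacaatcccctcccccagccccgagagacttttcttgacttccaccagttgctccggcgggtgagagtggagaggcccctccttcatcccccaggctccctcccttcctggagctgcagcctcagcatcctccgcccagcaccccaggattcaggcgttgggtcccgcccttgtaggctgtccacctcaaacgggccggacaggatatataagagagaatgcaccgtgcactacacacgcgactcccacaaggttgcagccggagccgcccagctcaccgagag

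The GCLM window held 1 match, on the opposite strand, starting 34 bases before the annotated start. The KEAP1 window held 2 matches, 54 and 31 bases before the start, and the other KEAP1 window held none. The TXNRD1 window shown held 1 match 102 bases before the start, and both TXNRD1 windows held at least 1. None was found in the NQO1 window, which says only that these letters are not within it. In all, 4 of the 11 windows of the members held the core, beside 13.3% of 35116 RefSeq promoter windows. The looser TGANNNNGC, which contains every core match, was found in 7 of the 11 windows and in 41.8% of all windows. A match is a match of letters and was not tested for binding.

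The genes lie on 8 chromosomes of GRCh38. HMOX1 (ENSG00000100292) spans chr22:35380361-35394214 on the plus strand and no other annotated gene overlaps it. NQO1 (ENSG00000181019) spans chr16:69706996-69726668 on the minus strand, and OSGIN1 (ENSG00000140961) lies farther along the same chromosome at chr16:83931311-83966332 on the plus strand. NFE2L2 (ENSG00000116044) spans chr2:177218667-177392756, KEAP1 (ENSG00000079999) chr19:10486125-10503558, GCLC (ENSG00000001084) chr6:53497341-53616970 and GCLM (ENSG00000023909) chr1:93885199-93909456, all on the minus strand. TXNRD1 (ENSG00000198431) spans chr12:104215779-104350307 on the plus strand. SRXN1 (ENSG00000271303) spans chr20:646615-653200 on the minus strand. Counts are over the exons of these genes, and a read that falls on exons of more than 1 gene of the same strand was given to none of them.

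SRXN1 could not be measured from these counts. A readthrough gene annotated on the same strand (ENSG00000270299) covers 2292 of its 2528 exon bases, or 90.7%. SRXN1 received 56 reads over all 66 libraries, spread over 36 of them with at most 4 in a library, and was tested in no line.

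Libraries held 17997404 to 24101670 reads assigned to genes, with medians of 20105328 untreated and 20340565 with etoposide, and every group had 3. The share of these reads on mitochondrial genes had a median of 5.07% untreated and 5.98% with etoposide, and was higher in every etoposide library than in every untreated library in 7 of the 10 lines, with overlap in HL-60, NB-4 and NOMO-1. Its part in the changes given here was not tested. Levels are counts scaled per 1e6 assigned reads (CPM) after trimmed mean of M values (TMM) scaling, either among the 6 libraries of a line or, for basal levels, among the 33 untreated libraries. Each change is a log2 fold change of etoposide over untreated with its standard error (SE), from the quasi-likelihood test of edgeR, and p-values were adjusted by Benjamini and Hochberg (FDR) over all genes tested in that line. A gene was called induced or repressed at an FDR below 0.05 with a fold change above 2, the study's own thresholds, and is said to have risen or fallen where the FDR was below 0.05 whatever the fold. In bulk RNA, fewer cells of a type and less RNA per cell cannot be told apart. As a check of the AML label, CD33, SPI1, PTPRC, MPO, KIT, CEBPA and ELANE were measured, and their summed level was 507 CPM or higher in every untreated library of the 10 lines, with ELANE at 0 in F-36P and NOMO-1 and KIT at 0 in untreated MONO-MAC-6.

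In untreated cells the members differed in level between the cell lines. All 8 members tested passed the test of a difference between the 11 lines (edgeR quasi-likelihood F-test, F from 23.6 for OSGIN1 to 226 for GCLC), as did 99.4% of all 18130 genes tested, so passing sets the members apart from nothing. Per kilobase of the canonical transcript, TXNRD1 had the highest median basal level over the lines, 62.1 CPM per kilobase, followed by KEAP1 at 39.7, NFE2L2 at 34.4, GCLC at 11.6, NQO1 at 7.85 and GCLM at 7.05. OSGIN1 and HMOX1 were far lower, at 0.914 and 0.787 CPM per kilobase. The plot of basal levels shows each member over the 11 lines.

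NFE2L2 itself varied little, with line means from 49.99 ± 1.97 CPM in KASUMI-1 to 125 ± 7.37 CPM (SD, n = 3) in MONO-MAC-6, a ratio of 2.504. MONO-MAC-6 overlapped both MV-4-11 (123 ± 1.14 CPM) and, at its lowest library, F-36P (99.9 ± 21.2 CPM), whose libraries ran from 79.5 to 122 CPM. The 5 lines at the bottom of the order, HL-60, OCI-AML2, NOMO-1, OCI-AML3 and KASUMI-1, overlapped each from one to the next.

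KEAP1, the NRF2 inhibitor, was highest in NB-4 at 219 ± 32.9 CPM, above every other line, and its libraries there read 181 to 240 CPM. MV-4-11 (136 ± 6.90 CPM) and MOLM-13 (132 ± 7.10 CPM) followed and overlapped. HL-60 was lowest at 65.8 ± 0.529 CPM, apart from the next line up, KASUMI-1 at 82.6 CPM.

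HMOX1 had the widest basal spread. MONO-MAC-6 stood highest at 16.3 ± 2.52 CPM, with THP-1 at 5.63 ± 0.732 CPM next and OCI-AML3 at 3.32 ± 0.964 CPM after it, each apart from the line below except OCI-AML3, which overlapped MOLM-13 (2.25 ± 0.189 CPM). NOMO-1 (1.403 CPM), F-36P (1.22 CPM), NB-4 (0.935 CPM) and MV-4-11 (0.567 CPM) overlapped from one to the next. KASUMI-1 stood at 0.208 CPM. HL-60 and OCI-AML2 were at the limit of the depth, with 2 reads each over their 3 untreated libraries.

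The quinone reductase gene NQO1 was also highest in MONO-MAC-6 and THP-1, at 57.0 ± 1.18 and 50.01 ± 3.97 CPM, and MV-4-11 followed at 40.5 ± 0.191 CPM. It was lowest in HL-60 (9.78 ± 2.09 CPM) and KASUMI-1 (9.72 ± 0.892 CPM), which overlapped. OSGIN1 was low everywhere, from 0.267 ± 0.0431 CPM in HL-60 to 3.09 ± 0.501 CPM in THP-1, and the 7 highest lines overlapped each from one to the next.

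The paired subunits of glutamate-cysteine ligase did not share an order. F-36P led both, at 85.2 ± 4.57 CPM for GCLC and 92.2 ± 2.39 CPM for GCLM. OCI-AML2 overlapped F-36P for the catalytic subunit GCLC at 83.4 CPM but stood at 36.6 CPM for the modifier subunit GCLM. THP-1 and MONO-MAC-6 came next for GCLM (69.9 and 61.8 CPM), yet 6 lines stood above THP-1 for GCLC (34.5 CPM). MV-4-11 and OCI-AML3 were the lowest for GCLC, at 14.9 and 14.8 CPM, and KASUMI-1 for GCLM, at 11.6 ± 0.377 CPM. TXNRD1 was the most even member, from 153 ± 10.96 CPM in MONO-MAC-6 to 350 ± 10.3 CPM in F-36P, a ratio of 2.29.

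Across the 11 lines, Pearson's r between the basal log2(1 + CPM) of 2 members ran from -0.60 (HMOX1 with TXNRD1) to 0.71 (HMOX1 with OSGIN1 and NFE2L2 with NQO1) over 28 pairs, 19 of them positive. These are descriptions over 11 cell lines that share 1 table of libraries, and nothing was tested with them. Of all genes with at least 1 CPM, the one whose basal pattern was most like that of HMOX1 was PPARG (r = 0.92), for NQO1 SATB1-AS1 (r = 0.89), for OSGIN1 SELENOT (r = 0.93), for GCLM CREG1 (r = 0.93), for GCLC KLC4 (r = 0.89), for TXNRD1 KLRG1 (r = 0.92), for KEAP1 ATG4D (r = 0.93) and for NFE2L2 USP16 (r = 0.89).

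After etoposide, the members did not move as 1 group. Of 90 pairs of a member and a cell line over the 10 lines, 78 could be tested, and 15 were induced while 0 were repressed. HMOX1 alone gave 8 of the 15. OSGIN1 gave 4, NQO1 2 and NFE2L2 1, and KEAP1, GCLC, GCLM and TXNRD1 gave none. Over all genes, 11.1% of the 143149 tests of a gene in a line were induced and 3.96% repressed. Without HMOX1, 7 of the 69 remaining tests of the members were induced, which is close to that background. Without the fold minimum, 33 of the 78 pairs rose and 8 fell, beside 27.7% and 24.4% of the tests of all genes. With scaling by library size alone these pairs numbered 40 and 5.

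The background differs from line to line and is given here beside the members' counts. In F-36P 24.3% of all genes tested were induced, 35% rose and 25% fell, and of 8 members 2 were induced, 4 rose and 2 fell. In HL-60 5.34% were induced, 17.5% rose and 15% fell, and of 6 members none was induced, 2 rose and none fell. In KASUMI-1 the shares were 14.6%, 31.5% and 28.6%, and of 8 members 1 was induced, 4 rose and 1 fell. MOLM-13 had 8.59%, 28.1% and 28.1%, with 1 member induced, 1 that rose and 2 that fell. MONO-MAC-6 had 8.53%, 31.8% and 30.5%, with 1 member induced, 5 that rose and none that fell. For MV-4-11 these were 12.5%, 33.5% and 30.4%, beside 2 members induced, 4 that rose and 2 that fell. For NB-4 they were 13.2%, 31% and 28.7%, beside 2 induced, 3 that rose and 1 that fell. NOMO-1 showed 8.34%, 28.8% and 23.9% for all genes, and 3 members induced, 4 that rose and none that fell. OCI-AML3 showed 7.18%, 22.4% and 17.7%, and 1 member induced, 2 that rose and none that fell. In THP-1 6.38% of all genes were induced, 16.1% rose and 16% fell, and 2 members were induced, 4 rose and none fell. With 6 to 8 members tested in a line, no single line's share was read against its background.

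**Figure D1:**
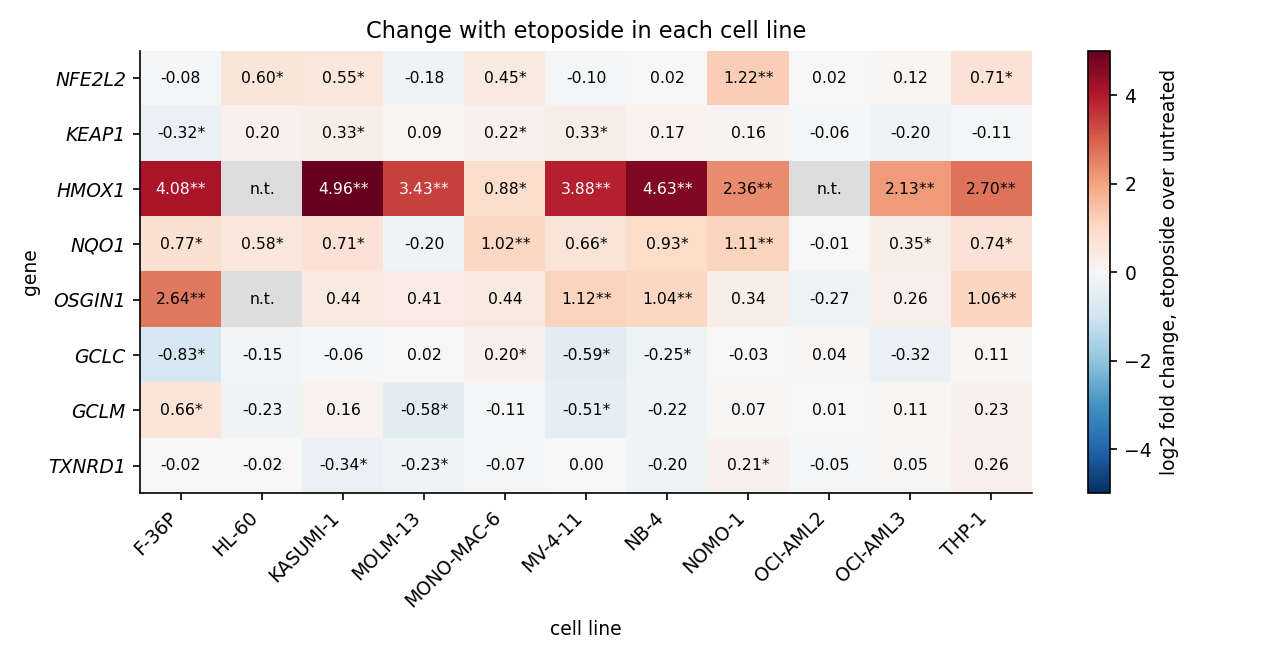
Log2 fold change of etoposide over untreated for 8 genes (rows) in 11 AML cell lines (columns), with colour from blue (lower with etoposide) to red (higher). Values with 2 asterisks were induced (FDR below 0.05 and a fold change above 2), those with 1 asterisk passed an FDR of 0.05 alone, and n.t. means too few reads to test. HMOX1 was induced in 8 lines with log2 fold changes from 2.13 to 4.96, and OCI-AML2 had no call.

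HMOX1 was the member with the largest change. Every etoposide library lay above every untreated library in all 10 lines, HL-60 included. Among the genes tested in a line, fewer than 2% had a larger log2 fold change than HMOX1 in THP-1, NOMO-1, NB-4, OCI-AML3, MV-4-11, MOLM-13 and KASUMI-1, while 5.37% did in F-36P and 10.4% in MONO-MAC-6.

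In KASUMI-1 the untreated libraries held 0.356, 0.158 and 0.1096 CPM (7, 3 and 2 reads) and the etoposide libraries, through which alone the gene passed the filter on low counts, 6.73, 7.15 and 6.35 CPM. The log2 fold change was 4.96 ± 0.27 (SE, FDR = 8.15e-07), the largest of any member in any line. In NB-4 the level rose from 0.254, 0.982 and 1.72 CPM to 13.1, 20.6 and 37.9 CPM, a log2 fold change of 4.63 ± 0.43 (FDR = 3.45e-07). The NB-4 libraries were widely spread within each group. Untreated replicate 1 held 5 reads, so HMOX1 passed the filter on low counts in NB-4 only with the etoposide libraries. F-36P went from 1.69, 1.16 and 1.00 CPM to 19.5, 19.8 and 26.3 CPM (log2 fold change 4.08 ± 0.23, FDR = 1.46e-06). These 3 lines had 16.9-fold to 31.2-fold more HMOX1 mRNA after the drug, and in none of them did the groups come near each other.

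MV-4-11 rose from 0.735, 0.456 and 0.625 CPM to 7.86, 9.77 and 9.48 CPM, a log2 fold change of 3.88 ± 0.20 (FDR = 7.88e-13). Its untreated replicate 2 held 8 reads, so here too the gene passed the filter on low counts only with the etoposide libraries. MOLM-13 rose from 2.16, 1.98 and 2.34 CPM to 20.1, 23.9 and 26.2 CPM (3.43 ± 0.14, FDR = 4.12e-07). Both were induced more than 10-fold.

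THP-1 reached the highest level of all lines. Its libraries went from 4.98, 5.93 and 6.44 CPM to 40.7, 37.4 and 34.5 CPM, a log2 fold change of 2.70 ± 0.15 (FDR = 6.72e-10). NOMO-1 rose from 1.44, 1.54 and 1.73 CPM to 8.41, 9.11 and 6.72 CPM (2.36 ± 0.18, FDR = 1.08e-06). OCI-AML3 rose from 2.31, 3.42 and 4.30 CPM to 13.2, 12.0 and 18.8 CPM (2.13 ± 0.24, FDR = 0.000261). The folds in these lines lay between 4.37 and 6.48.

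MONO-MAC-6, the line with the highest basal level, had the smallest log2 fold change of the 9 lines tested. HMOX1 there rose from 13.98, 17.9 and 19.0 CPM to 30.0, 32.8 and 30.6 CPM, 1.83-fold, with an FDR of 1.31e-05 but under the fold minimum (log2 fold change 0.88 ± 0.10). Its level after etoposide, 31.1 ± 1.45 CPM, was second only to that of THP-1 (37.5 ± 3.12 CPM) as a mean. HL-60 had too few reads for the filter on low counts, with 0, 1 and 1 reads untreated and 21, 9 and 30 reads with etoposide. The ratio per assigned read in HL-60 was 30.5, with an exact 95% interval of 8.08 to 257 that covers counting error only. Without the filter HL-60 was called as well, with a log2 fold change of 4.58 ± 0.65 and an FDR of 1.17e-10.

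**Figure D2:**
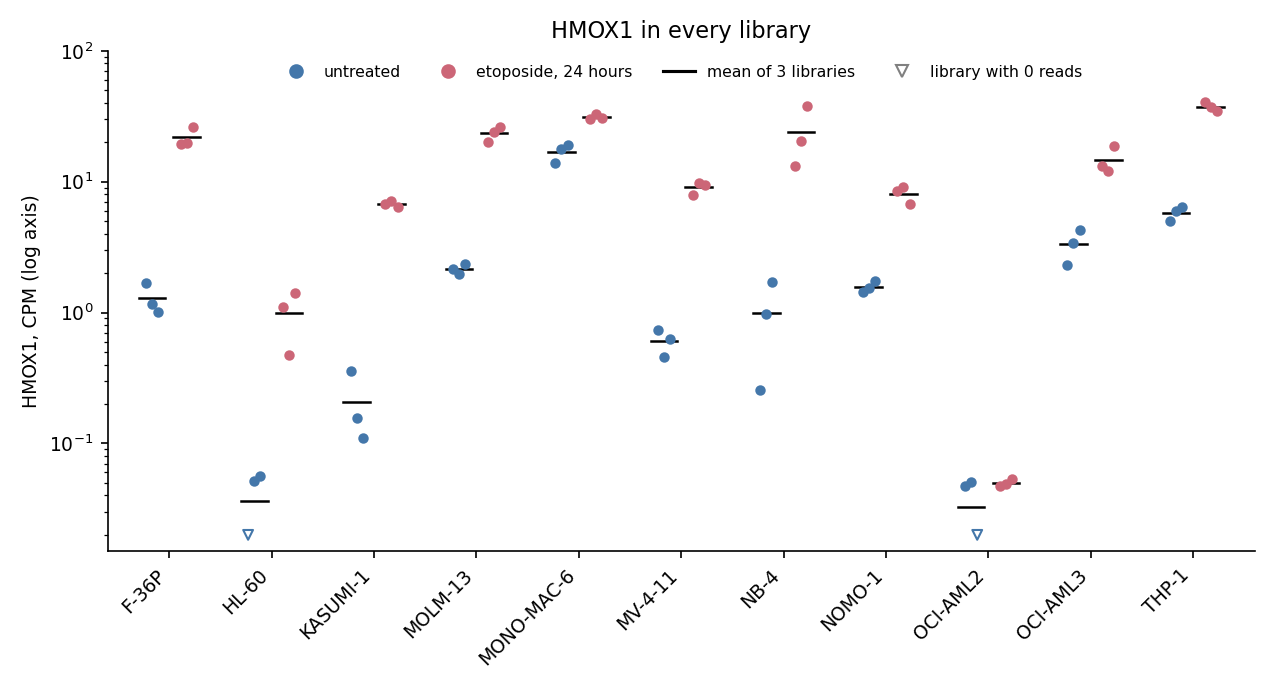
HMOX1 in every library of 11 AML cell lines, in CPM on a log axis, untreated (blue) and after 24 hours of etoposide (red), with the mean of 3 libraries as a line and libraries with 0 reads as open triangles at the bottom. The etoposide points lie above the untreated points in every line but OCI-AML2, from 0.473 CPM in HL-60 to 40.7 CPM in THP-1.

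Markers of monocytes and macrophages moved as well. The summed level of CD14, LYZ, ITGAM, CSF1R, CD68, MRC1, CD163 and FCGR1A ran from 6.81 to 4480.3 CPM over untreated libraries and from 14.4 to 5981 CPM over etoposide libraries of the 10 lines. It was higher in every etoposide library than in every untreated library in 8 of the 10 lines, lower in 1 (MONO-MAC-6), and overlapping in NOMO-1. A sum is weighted towards its most abundant genes. In MONO-MAC-6, of 6 markers tested, 4 were induced and 1 was repressed, with a median log2 fold change of 1.36. Of 52 tests of these markers, 30 (57.7%) were induced and 2 (3.85%) repressed, beside 11.1% and 3.96% of the tests of all genes. In HL-60, where HMOX1 was higher in every etoposide library, the list summed to at most 22.3 CPM. CD68 and CD163 were at 0 there in the untreated libraries and MRC1 with etoposide. Of the 3 markers of this list that could be tested in HL-60, 2 were induced and 0 repressed. CD163 was also at 0 in untreated F-36P, KASUMI-1, MV-4-11 and NB-4, and its test in F-36P rested on the etoposide libraries. MRC1 could be tested in F-36P alone. Early myeloid markers gave 5 induced and 7 repressed of 62 tests (8.06% and 11.3%), with sums of 507 to 30081 CPM untreated and 490 to 14962 CPM with etoposide. Erythroid and megakaryocytic markers gave 7 induced and 3 repressed of 32 (21.9% and 9.4%), with sums of 9.95 to 1975 CPM and 8.23 to 1290 CPM. Markers of other cell types gave 20 and 2 of 41 (48.8% and 4.88%), with sums of 0.991 to 318 CPM and 2.93 to 376 CPM. A marker low in untreated cells was tested only in lines where its etoposide libraries passed the filter on low counts. That can raise the induced shares of these marker lists, so they were not read against the share of all genes. The part of these markers in the change of HMOX1 was not tested.

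NQO1 rose in 9 of the 10 lines, and passed the fold minimum in 2. In NOMO-1 the libraries went from 18.7, 20.5 and 18.6 CPM to 41.2, 41.9 and 41.8 CPM (log2 fold change 1.11 ± 0.09, FDR = 1.86e-06). In MONO-MAC-6 they went from 60.2, 59.7 and 57.9 CPM to 125, 114 and 121 CPM (1.02 ± 0.05, FDR = 2.25e-08). Leaving out untreated replicate 3 or etoposide replicate 1 of MONO-MAC-6 gave a log2 fold change of 0.99, just under the minimum, with the FDR still below 0.05.

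The other lines in which NQO1 rose had smaller changes. NB-4 went from 42.6, 42.4 and 30.0 CPM to 79.4, 70.8 and 68.8 CPM (0.93 ± 0.12, FDR = 1.24e-05), and passed the fold minimum without untreated replicate 1 (1.00) or with scaling by library size alone (1.14). F-36P (0.77 ± 0.17), THP-1 (0.74 ± 0.12), KASUMI-1 (0.71 ± 0.12) and MV-4-11 (0.66 ± 0.07) rose with their groups apart. HL-60 rose by 0.58 ± 0.19 (FDR = 0.0281) with overlapping libraries, 12.1, 7.90 and 11.5 CPM against 11.8, 16.9 and 18.3 CPM, and the call was lost when untreated replicate 2 or etoposide replicate 2 or 3 was left out (FDR = 0.121, 0.0674 and 0.0918). OCI-AML3 rose by 0.35 ± 0.10 (FDR = 0.022), a call lost without untreated replicate 1 or 3 or etoposide replicate 1 (FDR = 0.0982, 0.0825 and 0.0527). MOLM-13 stood apart, with 13.7, 15.7 and 16.6 CPM untreated and 14.1, 14.9 and 11.2 CPM with etoposide, a log2 fold change of -0.20 ± 0.13 (FDR = 0.205).

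OSGIN1 was induced in 4 lines and had a positive log2 fold change in all 9 in which it could be tested. F-36P showed the largest of these, from 2.42, 2.90 and 1.89 CPM to 12.7, 14.4 and 18.0 CPM (2.64 ± 0.21, FDR = 5.65e-06), although 10.9% of the genes tested in F-36P rose more. MV-4-11 went from 1.68, 2.39 and 1.56 CPM to 3.26, 4.51 and 4.47 CPM (1.12 ± 0.20, FDR = 4.96e-05). THP-1 went from 3.14, 2.68 and 3.69 CPM to 5.29, 8.38 and 6.17 CPM (1.06 ± 0.21, FDR = 0.000928), and fell under the fold minimum without untreated replicate 2 (0.98) or etoposide replicate 2 (0.89). NB-4 rested on few reads, 7, 12 and 14 against 31, 22 and 29, with a log2 fold change of 1.04 ± 0.33 (FDR = 0.0123). With 7 reads in untreated replicate 1, OSGIN1 passed the filter on low counts in NB-4 only with the etoposide libraries. Its call was lost with DESeq2 (adjusted p = 0.0543), without untreated replicate 1 (0.75, FDR = 0.0753), and, under the fold minimum, without etoposide replicate 1 (0.97) or 3 (0.98). The other 5 lines had log2 fold changes between 0.26 and 0.44, none past an FDR of 0.05, and HL-60 held 16 reads untreated and 32 with etoposide, too few to test.

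The mRNA of NFE2L2 was induced in 1 line and rose in 5. In NOMO-1 it went from 79.2, 62.0 and 65.1 CPM to 127, 190 and 162 CPM (1.22 ± 0.14, FDR = 2.08e-05). THP-1 rose from 102, 103 and 95.6 CPM to 185, 146 and 161 CPM (0.71 ± 0.12, FDR = 0.000294), and HL-60 from 74.6, 75.7 and 76.5 CPM to 125, 84.5 and 135 CPM (0.60 ± 0.14, FDR = 0.00467). KASUMI-1 (0.55 ± 0.12) and MONO-MAC-6 (0.45 ± 0.06) also rose with their groups apart. The remaining lines had log2 fold changes from -0.18 in MOLM-13 to 0.12 in OCI-AML3, with overlapping groups. In all 5 of these lines, F-36P, MOLM-13, MV-4-11, NB-4 and OCI-AML3, HMOX1 was induced. It was induced as well in NOMO-1, THP-1 and KASUMI-1, where NFE2L2 rose. Of the other lines with a rise of NFE2L2, HMOX1 rose under the fold minimum in MONO-MAC-6 and was not tested in HL-60.

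KEAP1 moved by at most 1.26-fold in the 4 lines where it passed. It rose in MV-4-11, from 141, 141 and 154 CPM to 167, 189 and 194 CPM (0.33 ± 0.06, FDR = 7.26e-05), in KASUMI-1 (0.33 ± 0.11, FDR = 0.0255) and in MONO-MAC-6 (0.22 ± 0.06, FDR = 0.00582). It fell in F-36P, from 124, 118 and 110 CPM to 85.8, 88.6 and 107 CPM (-0.32 ± 0.12, FDR = 0.0456), a call that was lost with the exact test, with scaling by library size alone and when single libraries were left out. The KASUMI-1 call was lost without untreated replicate 1 or 2 or etoposide replicate 2 (FDR = 0.0853, 0.108 and 0.0549).

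**Figure D3:**
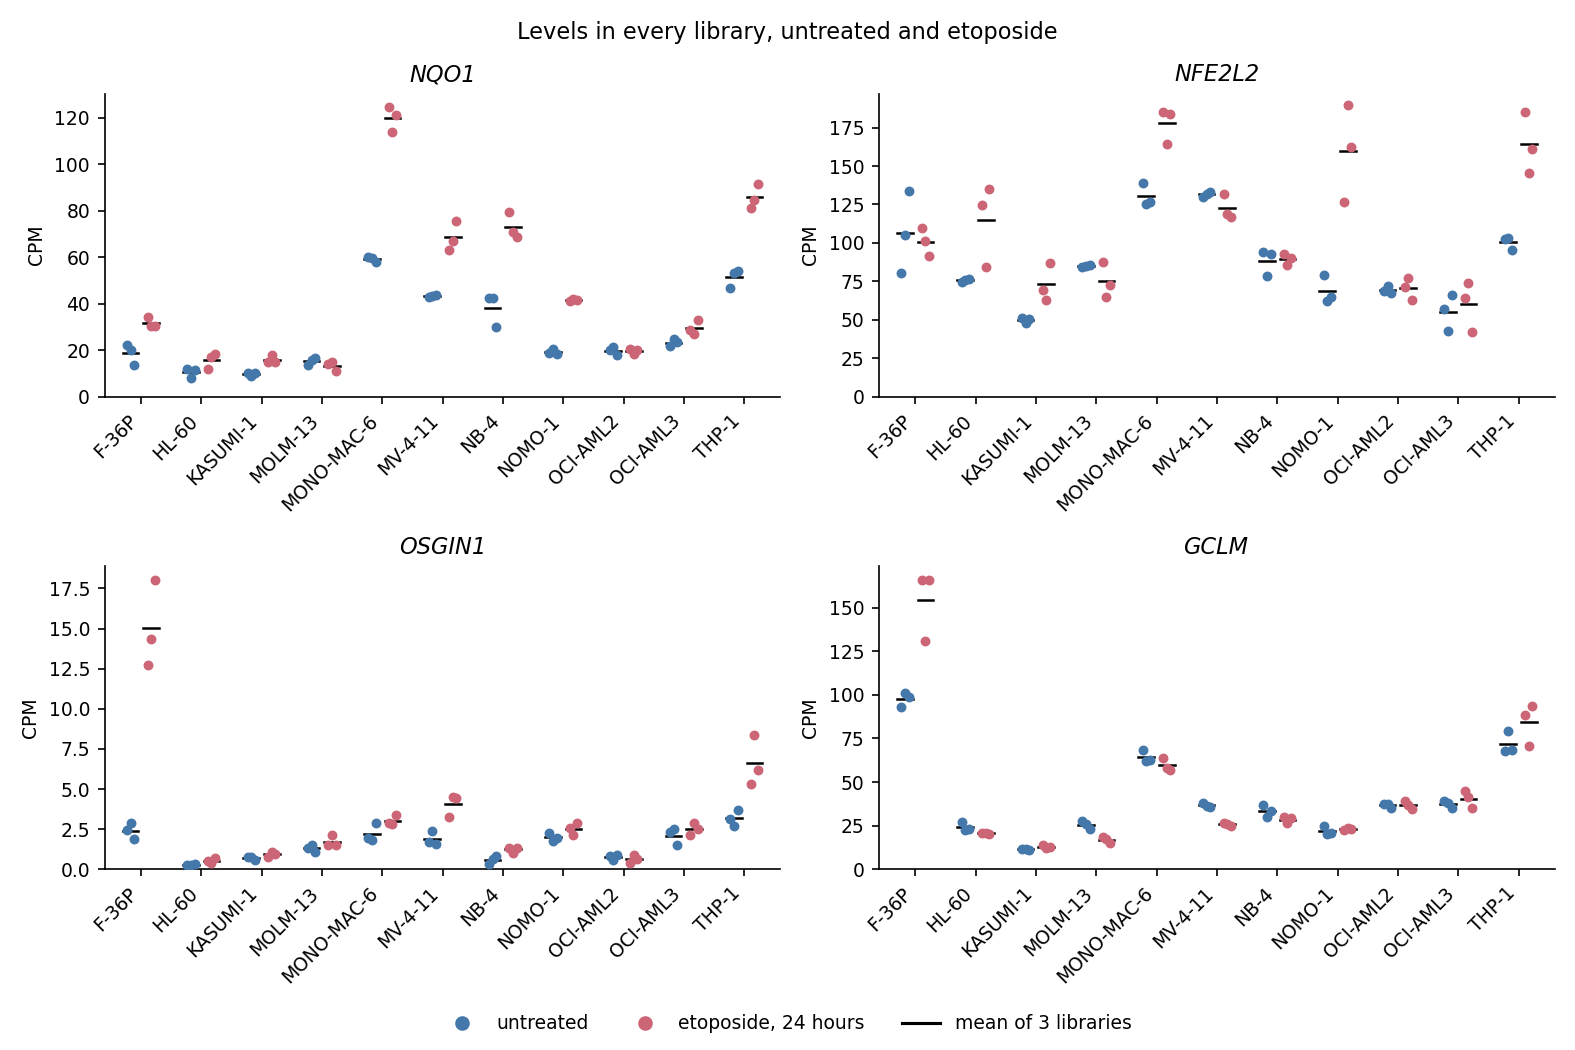
NQO1, NFE2L2, OSGIN1 and GCLM in every library of 11 AML cell lines, in CPM on linear axes from 0, untreated (blue) and after 24 hours of etoposide (red), with the mean of 3 libraries as a line. NQO1 rose from 59.3 to 120 CPM in MONO-MAC-6, and GCLM from 97.7 to 154 CPM in F-36P but fell from 36.8 to 25.9 CPM in MV-4-11.

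The subunits of glutamate-cysteine ligase had no induced or repressed call, and they moved apart in F-36P. There GCLC fell from 82.0, 96.3 and 92.8 CPM to 54.5, 46.6 and 51.0 CPM (-0.83 ± 0.12, FDR = 0.000206), while GCLM rose from 93.2, 101 and 98.6 CPM to 166, 131 and 166 CPM (0.66 ± 0.12, FDR = 0.00108). Both fell in MV-4-11. GCLC went from 15.7, 15.7 and 16.5 CPM to 11.7, 10.3 and 9.94 CPM (-0.59 ± 0.10, FDR = 2.69e-05), and GCLM from 38.0, 36.5 and 35.9 CPM to 26.6, 26.2 and 24.9 CPM (-0.51 ± 0.07, FDR = 3.54e-06).

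GCLM also fell in MOLM-13, from 27.7, 25.7 and 23.1 CPM to 18.5, 17.4 and 15.2 CPM (-0.58 ± 0.10, FDR = 0.000921), where GCLC stood at 0.02 ± 0.10. For GCLC a small fall in NB-4 (-0.25 ± 0.11, FDR = 0.0473) and a small rise in MONO-MAC-6 (0.20 ± 0.06, FDR = 0.0117) passed. The NB-4 value did not pass without the filter on low counts (FDR = 0.0894) or with scaling by library size alone (-0.05, FDR = 0.696). It was also lost with another filter, in 1 fit of 60 libraries, and without untreated replicate 1 or etoposide replicate 2 or 3 (FDR = 0.162, 0.129 and 0.179). The MONO-MAC-6 value did not pass without untreated replicate 3 (FDR = 0.0538) or etoposide replicate 1 (FDR = 0.0583), nor in 1 fit of 60 libraries (FDR = 0.109). In OCI-AML3 GCLC was lower in every etoposide library, 12.8, 12.5 and 10.7 CPM against 15.3, 13.4 and 16.02 CPM, with an FDR of 0.0513.

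TXNRD1, the member with the highest basal level per kilobase, passed in 3 lines with folds of at most 1.27. It fell in KASUMI-1, from 250, 229 and 240 CPM to 193, 195 and 179 CPM (-0.34 ± 0.08, FDR = 0.00315), and in MOLM-13 (-0.23 ± 0.08, FDR = 0.0325). It rose in NOMO-1, from 281, 278 and 255 CPM to 337, 310 and 298 CPM (0.21 ± 0.08, FDR = 0.0434). The NOMO-1 call was lost with DESeq2 (adjusted p = 0.113) and in each of the 6 fits that left out 1 library. The MOLM-13 call was lost in 4 of its 6 such fits, and the KASUMI-1 call with scaling by library size alone (FDR = 0.0811). In the other 7 lines its log2 fold change lay between -0.20 and 0.26. In NB-4, where replicate numbers paired the libraries, a replicate block added 3 small calls, TXNRD1 (-0.20, FDR = 0.00601), GCLM (-0.22, FDR = 0.0235) and KEAP1 (0.18, FDR = 0.0394).

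In OCI-AML2 none of the 7 members tested changed. NQO1 stood at 20.0, 21.4 and 18.1 CPM untreated and 20.6, 18.5 and 19.9 CPM with etoposide, and HMOX1 had 1, 1 and 0 reads against 1, 1 and 1. In this line 3 of 13604 genes rose at an FDR below 0.05, or 0.0221%, 456 had an unadjusted p below 0.05, and DESeq2 gave 16 genes and edgeR's exact test 20 at the same FDR. Nearly all genes were thus without a call in this line.

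Taking each of the 10 lines as 1 value, 4 members were higher on average. The mean log2 fold change was 3.15 ± 0.33 (SE) for HMOX1 (limma, FDR = 7.65e-05, higher in 10 of 10 lines), 0.85 ± 0.22 for OSGIN1 (FDR = 0.00781, 10 of 10 lines), 0.70 ± 0.11 for NQO1 (FDR = 0.000527, 9 of 10 lines) and 0.36 ± 0.12 for NFE2L2 (FDR = 0.0292, 8 of 10 lines). These counts of lines use TMM scaling over all 60 libraries. With the fits within each line, NFE2L2 had 7 positive and 3 negative values. KEAP1 (0.12 ± 0.07), TXNRD1 (0.00 ± 0.06), GCLM (-0.01 ± 0.11) and GCLC (-0.15 ± 0.09) did not pass, and no member was lower. Of all 14065 genes in this test, 24.4% were higher and 17.9% lower. An exact sign-flip permutation over the lines gave two-sided p-values of 0.00195 for HMOX1 and OSGIN1, the smallest that 10 lines allow, 0.00391 for NQO1 and 0.0273 for NFE2L2. The NFE2L2 mean did not pass in limma without HL-60 (FDR = 0.0605), KASUMI-1 (FDR = 0.051) or THP-1 (FDR = 0.0555), nor without the filter on low levels (FDR = 0.11).

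The size of the change differed between the lines for all 8 members tested (edgeR quasi-likelihood F-test of the line by treatment terms over 60 libraries). F was highest for HMOX1 (18.7, FDR = 2.29e-12), GCLM (12.8) and OSGIN1 (12.4) and lowest for TXNRD1 (4.50) and KEAP1 (4.19, FDR = 0.000789). Of all 19974 genes tested, 74.5% passed as well. TXNRD1 did not pass when replicate 3 of every group was left out (FDR = 0.0927).

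Pearson's r between the log2 fold changes of 2 members, over the 10 lines and 15 pairs of the 6 members tested in all of them, ran from -0.66 (KEAP1 with GCLM) to 0.55 (NFE2L2 with NQO1), with a median of 0.27 and 12 of the 15 positive. Over the 9 lines in which HMOX1 was tested, r with HMOX1 lay between -0.54 for TXNRD1 and 0.39 for OSGIN1, with -0.36 for NFE2L2 and -0.13 for NQO1. These values rest on 9 or 10 lines, each at its own concentration, and were not tested. The gene whose change was most like that of GCLM was NCOA7 (r = 0.97), for NFE2L2 BLOC1S5 (r = 0.98), for NQO1 INTS7 (r = 0.95), for TXNRD1 SURF4 (r = 0.95), for KEAP1 AQP3 (r = 0.92) and for GCLC PLAGL2 (r = 0.87), out of 10588 genes tested in every line.

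Beyond the members, 44 further genes known as NRF2 targets were examined, of which 42 could be tested in at least 1 line. Of 368 tests of these genes in a line, 56 (15.2%) were induced and 12 (3.26%) repressed, beside the 11.1% and 3.96% of all genes. The median log2 fold change of the list in a line ran from -0.12 in HL-60 to 0.34 in NB-4, with a median over the lines of 0.18, beside medians of all genes between -0.03 and 0.09. Among the 42, 22 genes were induced in at least 1 line and 8 repressed in at least 1. Of all 19601 genes tested in at least 1 line, 7108 were induced and 3329 repressed in at least 1.

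ABHD4, a lipid hydrolase, was induced in 6 of 10 lines and rose in all 10, from a log2 fold change of 0.85 in OCI-AML3 to 3.10 in NB-4. In untreated NB-4 it stood at 0.254, 0.437 and 0.229 CPM, and it entered the test there through the etoposide libraries. In F-36P its libraries went from 14.7, 14.6 and 14.8 CPM to 67.3, 65.0 and 77.3 CPM. The aldo-keto reductase genes AKR1C3 and AKR1C2 were each induced in 5 lines and AKR1C1 in 4, and some of these calls, such as those of AKR1C1 and AKR1C3 in NB-4, entered the test through the etoposide libraries. In NOMO-1, AKR1C3 went from 10.1, 12.1 and 10.2 CPM to 47.2, 38.4 and 44.9 CPM (2.01, FDR = 1.75e-07). AKR1C1 and AKR1C2 are near-identical copies and AKR1C3 is closely related, so reads between them can be lost or split. TKT, of the pentose phosphate pathway, was repressed in 2 lines. ABCC2, a transporter, was also repressed in 2, fell in 6 and was induced in F-36P (1.16, FDR = 0.000758). SLC6A9, a glycine transporter, was repressed in 3 lines and induced in 3 others, with a log2 fold change of 4.99 in THP-1. Its untreated THP-1 libraries held 0.157, 0 and 0.156 CPM, so in that line it entered the test through the etoposide libraries.

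**Figure D4:**
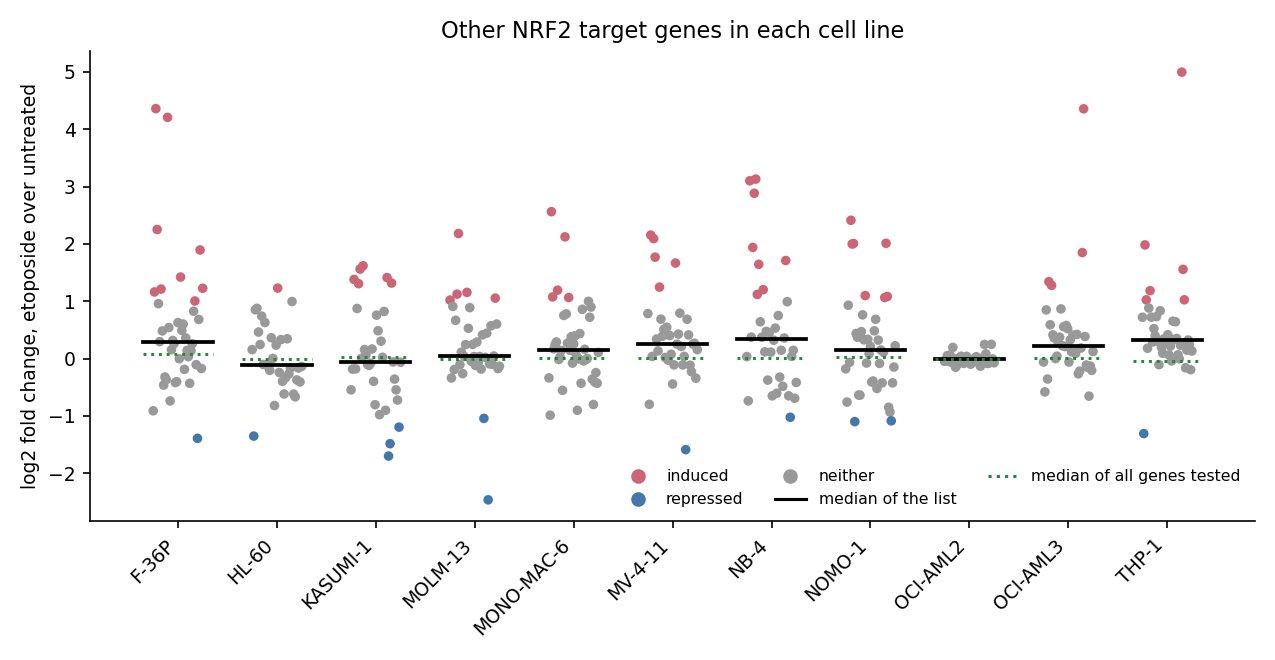
Log2 fold change of etoposide over untreated of the other NRF2 target genes, 1 point a gene, in 11 AML cell lines. Red points were induced, blue points repressed (FDR below 0.05 and a fold change above 2), the black line is the median of the list and the dotted green line that of all genes tested. List medians lay between -0.12 (HL-60) and 0.34 (NB-4) in the 10 lines, and no point of OCI-AML2 was called.

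Regulators and partners of NRF2 moved in both directions and mostly by less than 2-fold. Of 194 tests of 20 genes, 53 rose and 49 fell, and 16 (8.25%) were induced and 1 (0.515%) repressed. Of the tests of all genes, 27.7% rose, 24.4% fell, 11.1% were induced and 3.96% repressed. MAFF, a small MAF protein, was induced in 5 lines, in NOMO-1 from 3.19, 2.68 and 2.92 CPM to 9.01, 13.3 and 7.63 CPM (1.77, FDR = 2.72e-05). SQSTM1 (p62), which binds KEAP1 and is also an NRF2 target, rose in all 10 lines and was induced in 4, with log2 fold changes from 0.39 in OCI-AML3 to 1.32 in KASUMI-1. BACH2 was induced in HL-60, from 5.69, 6.97 and 5.61 CPM to 17.2, 12.5 and 15.6 CPM (1.30, FDR = 6.68e-05), and in 3 further lines, F-36P, NB-4 and NOMO-1, in which it entered the test through the etoposide libraries. NFE2 was induced in 3 lines, rose in 5 and fell in 4. Among the genes that fell, looked up after their values were seen, were those of the cullin CUL3 and of RBX1, both of the ligase that KEAP1 serves, each in 6 lines, and CUL1, a related cullin, in 9. Of the same list, SKP1 fell in 1 line and rose in none, and BTRC rose in 1 and fell in none. BACH1, the repressor of HMOX1, looked up after its values were seen, was neither induced nor repressed in any line, rose in 2 and fell in 2, and ranged from -0.41 in NB-4 to 0.55 in KASUMI-1.

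Among other antioxidant genes, 18 of the 19 listed were found by symbol, with SOD2 the exception. Of 163 tests, 46 rose and 55 fell, and 12 (7.36%) were induced and 1 (0.613%) repressed. The shares over all genes were 27.7% and 24.4%, and 11.1% and 3.96%. Looked up after their values were seen, the peroxiredoxin genes PRDX3, PRDX4 and PRDX6 fell in 10, 9 and 6 lines and SOD1, the cytosolic superoxide dismutase, in 9, and none of them rose in any line. Of the same list, PRDX2 rose in 1 line and fell in 2, and PRDX5 rose in 2 and fell in none. TXNIP, which binds and inhibits thioredoxin, was induced in 4 lines, with a log2 fold change of 1.27 in NOMO-1 and -0.44 in F-36P. GPX3, a secreted glutathione peroxidase, was induced in 3 lines, F-36P, MONO-MAC-6 and KASUMI-1, and was below 1 CPM in every library of the other lines. In KASUMI-1 it went from a mean of 0.619 to 24.6 CPM. With 0.305 CPM in untreated replicate 1 of KASUMI-1, it passed the filter on low counts there only with the etoposide libraries. GLRX, a glutaredoxin, was induced in 2.

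Genes of haem and iron handling moved in both directions. Of 101 tests of 11 genes, 13 (12.9%) were induced and 8 (7.92%) repressed, beside 11.1% and 3.96% of the tests of all genes. TFRC, the transferrin receptor that brings iron into cells, fell in all 10 lines and was repressed in 6, from a log2 fold change of -0.57 in THP-1 to -2.19 in NB-4. In MONO-MAC-6 it went from 1130, 1028 and 1077 CPM to 332, 306 and 335 CPM. FTH1, the ferritin heavy chain that stores iron and also an NRF2 target, was induced in 5 lines, in KASUMI-1 from 99.2, 108 and 113 CPM to 289, 384 and 313 CPM (1.62, FDR = 2.74e-06), and stood at 0.15 (FDR = 0.325) in F-36P. FTH1 has many processed copies in the genome, so its counts are uncertain where reads match several places. CD163, the scavenger receptor for haemoglobin and one of the macrophage markers above, was induced in MONO-MAC-6 (1.52), THP-1 (1.17) and OCI-AML3 (1.15), which had reads in both groups, and in F-36P, where it entered the test through the etoposide libraries alone. BLVRB, a biliverdin reductase, was induced in 2 lines, and SLC40A1, the iron exporter, was repressed in 2.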

How the data were processed

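Total RNA of 66 cultures was sequenced with a strand-specific kit, per the labels. The authors checked reads with FastQC 0.11.5, aligned them to GRCh38.p7 with STAR 2.5.3a and deposited its gene counts, whole numbers of uniquely mapped reads per gene, not normalized. Each file held 1 count per gene, and the strand setting is not given in the sources used here. Of 438 genes that an opposite-strand exon covers completely, 347 had reads, which counting that ignores strand would have left unassigned. Reads without a gene stayed out of library sizes. Of 58037 identifiers, 45 copies of the pseudoautosomal Y region with 0 reads were left out, and 56948 of 57992 were named through GENCODE 44.

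Within each line, genes passing filterByExpr (minimum count 10, minimum total 15) were tested by edgeR 4.0.16 (quasi-likelihood, TMM) under R 4.3.3, with p-values adjusted by Benjamini-Hochberg over all genes tested. The mean change used limma 3.58.1 on 1 log2 fold change per line (prior count 2, mean of at least 1 CPM). Basal differences and the line by treatment terms used edgeR F-tests. DESeq2 1.42.0 served as an alternative, with other scalings, filters, a replicate block and leaving out each library or line. Figures and descriptions used Python 3.11.15, pandas 2.3.3, scipy 1.17.1 and matplotlib 3.10.9. The fitting code was tested on simulated data.

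Groups came from the sample labels. All 9 members were named, and from each further list the 5 genes induced and the 5 repressed in the most lines (at least 2), with the most similar genes for each member. The members and lists were chosen with earlier results of these data known. Replicate libraries differed by more than sampling noise (lowest chi-square per degree of freedom 2.12). The study describes its experiments in general as biological replicates, and the labels do not say how the 3 libraries of a group were separated, so p-values measure the spread between these libraries. Intervals cover counting error only. Same-numbered libraries deviated together in MOLM-13 (correlations of 0.148 to 0.245) and NB-4 (0.182 to 0.340), and more weakly in OCI-AML2 (0.0973 to 0.192). Each of these correlations was above every pairing of different numbers in its line. In MONO-MAC-6 (0.0513 to 0.327) and MV-4-11 (0.0428 to 0.186) all were positive, but the lowest was below another pairing. In the remaining lines not all were positive. One marker gene of the monocyte and macrophage list is not reported here and was left out of its counts and sums.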

Additional observations from a re-analysis of the deposited data

Results flagged for a closer look

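The etoposide effect differed between the 10 cell lines for each of the 8 members tested, by the F-test of the line by treatment terms in edgeR. F was 18.7 for HMOX1, which rose 31.2-fold in KASUMI-1 and 1.83-fold in MONO-MAC-6. For GCLM F was 12.8, with a rise in F-36P and falls in MOLM-13 and MV-4-11. For OSGIN1 it was 12.4 and for GCLC 10.2, with the largest change of both in F-36P. It was 8.13 for NFE2L2, 6.52 for NQO1, 4.50 for TXNRD1 and 4.19 for KEAP1. Since 74.5% of all genes passed this test, a difference between lines does not set the members apart. The concentration was set for each line, and its part in these differences cannot be told apart from that of the line.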

How the results depend on the processing

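The 15 induced pairs of a member and a line became 14 to 17 over the other scalings, filters and tests, and 13 to 16 when single replicates were left out, and HMOX1 was induced in 8 or 9 lines throughout. Without the fold minimum there were 33 higher and 8 lower pairs in place of 15 and 0, which became 40 and 5 with scaling by library size alone and 33 and 11 with a replicate block. Of these 41 pairs, 34 to 40 still passed an FDR of 0.05 under each alternative, and none changed direction. Scaling by library size alone moved the median of all genes up by 0.249 in F-36P, 0.205 in NB-4, 0.175 in KASUMI-1, 0.128 in MV-4-11, 0.116 in MONO-MAC-6 and 0.103 in HL-60 (log2), and NQO1 then passed 2-fold in F-36P and NB-4. A replicate block left 15 induced pairs, 0 repressed pairs and 8 members with a difference between lines. At an FDR of 0.05 alone the block lost 3 calls (KEAP1 in F-36P, TXNRD1 in NOMO-1 and NQO1 in OCI-AML3) and added 6, of which 3 were in NB-4. The mean change was higher for 3 or 4 members when single lines were left out and lower for 0, the difference between lines held for 7 or 8 members, and the basal difference for 8. The cause of these changes was not tested. HMOX1 and OSGIN1 in HL-60 are limited by depth, and SRXN1 in every line by the exons it shares with a readthrough gene.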
